A study of Rattus norvegicus with 4 samples.

Results

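The coreceptors and costimulatory molecules of T cells were followed in RNA of AA4-selected cells from the pancreatic lymph nodes of 2 groups of BioBreeding rats. The members were Cd4, Cd8a, Cd8b, Cd2, Cd5, Cd6, Cd28, Ctla4 and Cd27, which are grouped by their function on T cells. Every probe set that the platform's annotation assigns to 1 of these 9 symbols alone was taken, however dim, which gave 10 of the array's 31042 probe sets that are not controls. These stand for 8 of the 9 genes, with 3 probe sets for Cd8a and 1 for each of the others; Cd27 had no such probe set and was not analysed here. Of the 10, 8 passed the filter on low signal and were tested among 16068 probe sets.

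The DRlyp/lyp group, titled DP for diabetes-prone, carries the lyp allele of Gimap5 on both copies, a change known to leave rats short of peripheral T cells and prone to autoimmune diabetes. The DR+/+ group, titled DR, has the normal allele and is diabetes-resistant. Both groups were female and 65 days old, both were taken from the node that drains the pancreas, and both were selected with AA4, an antibody against mast cell gangliosides. Each group is a single pool of RNA from 8 animals, run on 2 arrays after separate amplifications, so the 4 arrays compare 1 pool with 1 other pool. The error given below is the SD over the 2 arrays of a pool, and p-values measure the spread between amplifications of the same RNA and not that between animals. A different number of T cells and a different amount of RNA per T cell cannot be told apart in such pooled cells. Kit, the defining receptor of mast cells, stayed at or below 11.3 on all arrays, under the filter of 28.3, whereas the granule protease Cpa3 lay between 425.8 and 527.8, so the pools matched the label by some mast cell genes and not by others. Of 14 mast cell genes tested, 7 had higher and 2 lower signal in the DRlyp/lyp pool, and of 7 plasma cell genes 2 and 2 (1 lower without either DRlyp/lyp array). By comparison, 20.9% of all 9349 genes tested were called higher and 21.1% lower. The 2 lower mast cell genes were the tryptases Tpsab1 (3.65-fold) and Tpsb2 (2.9-fold). Of the 7 higher mast cell genes, Mcpt4 and Il1rl1 were below the filter in the DR+/+ pool, so a higher call was the one direction open to them.

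CD4 and CD8 are coreceptors: CD4 binds MHC class II and CD8 binds MHC class I, and both bring the kinase Lck to the T cell receptor. Their presence divides T cells into helper and cytotoxic subsets, although rat macrophages and dendritic cells can also carry CD4 and most rat NK cells carry CD8 alpha chains. CD2 is an adhesion receptor whose rodent ligand is CD48, CD5 and CD6 are scavenger-type receptors that tune receptor signalling, CD28 is the main costimulatory receptor, CTLA4 competes with it for CD80 and CD86, and CD27 is a costimulatory receptor of the TNF receptor family. The comparison asked which of these molecules, and thereby which kind of T cell, left RNA in the 2 pools.

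RefSeq promoter windows (GRCr8) were available for 6 of the 9 genes. The 250 bases before the annotated start are shown for Cd2, Cd5 and Cd8a, the members with a window that were higher in the DRlyp/lyp pool. Capitals mark matches, on either strand, to short motifs of T-lineage transcription factor families.
Cd2 (chr2:191412660-191412909, minus strand): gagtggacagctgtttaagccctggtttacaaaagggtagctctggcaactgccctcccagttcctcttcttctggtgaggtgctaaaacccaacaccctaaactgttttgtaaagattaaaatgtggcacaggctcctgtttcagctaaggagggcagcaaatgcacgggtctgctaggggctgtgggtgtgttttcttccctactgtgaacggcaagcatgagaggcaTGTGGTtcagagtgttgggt
Cd5 (chr1:216811210-216811459, minus strand): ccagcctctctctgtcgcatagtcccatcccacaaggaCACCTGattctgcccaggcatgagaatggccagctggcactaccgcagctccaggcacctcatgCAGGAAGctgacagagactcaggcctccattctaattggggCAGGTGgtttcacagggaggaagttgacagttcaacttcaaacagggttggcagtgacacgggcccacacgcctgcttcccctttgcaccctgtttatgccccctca
Cd8a (chr4:104923866-104924115, plus strand): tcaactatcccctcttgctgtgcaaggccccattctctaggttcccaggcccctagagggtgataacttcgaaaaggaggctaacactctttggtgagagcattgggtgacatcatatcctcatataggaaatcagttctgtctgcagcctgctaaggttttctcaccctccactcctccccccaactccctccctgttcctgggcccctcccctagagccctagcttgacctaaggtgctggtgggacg
The 5 motifs searched were CAGGAAG for ETS factors, TGTGGT for RUNX factors, CTTTGA for TCF/LEF factors, AGATAA for GATA factors and the E box CAGGTG, each with its reverse complement. They occur in 10.2%, 14.5%, 13.9%, 10.3% and 15.9% of the 33469 windows of the same length. Cd2 had 1 match, a RUNX motif 20 to 15 bases before the start. Cd5 had an ETS motif at 148 to 142 bases and E boxes at 212 to 207 and 107 to 102 bases before the start, and Cd8a had no match. None of the matches overlapped another. These are matches of letters in a window, not binding sites, and the 3 windows shared no motif.

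Signal of T cell surface receptors was higher in the DRlyp/lyp pool for 6 of the 8 tested probe sets, which belong to Cd2, Cd5, Cd6, Cd8a and Cd8b. It was lower for 1 of the 8, that of Cd4, and 1 probe set of Cd8a was not past the threshold (limma, adjusted p under 0.05). Over the whole array 19.3% of the probe sets tested were called higher and 19.9% lower. The median log2 difference of the 8 tested probe sets, DRlyp/lyp minus DR+/+, was 1.15. Counted by gene, with the brightest tested probe set of each, 5 of 6 members were higher and 1 was lower with a median of 1.21, against 20.9% and 21.1% of all 9349 genes and a median of 0.00. Those gene shares are also the background of each gene list below, and no list was tested against them. The arrays of the pools did not overlap for any of the 8 tested member probe sets, which held for 70.0% of all probe sets tested. When all 31042 probe sets were tested together, 2.72% were called higher and 2.66% lower, and the members' calls fell to 2, both higher, for Cd2 and Cd5. A length measure of the RNA moved with the pools: the 3′ minus 5′ signal of beta-actin was larger by 1.44 (log2) and that of GAPDH by 0.81 in the DRlyp/lyp pool, and its part in the differences below was not tested.

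**Figure D1:**
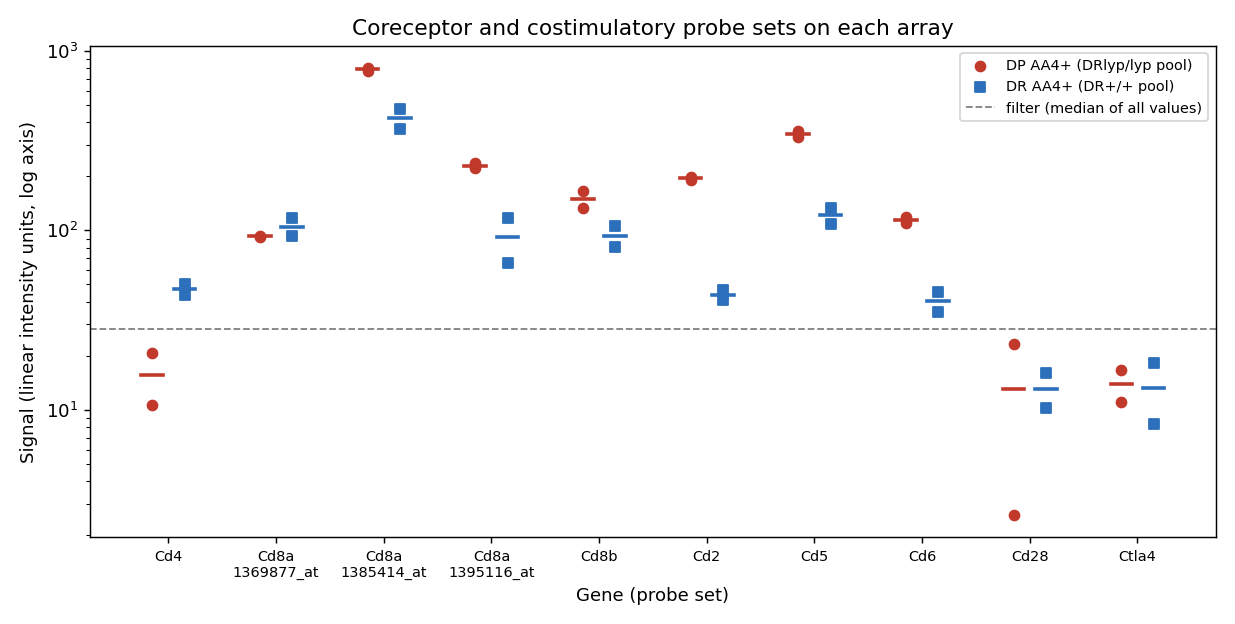
Signal of each member probe set on each array, in linear intensity units on a log axis; circles are the 2 DP AA4+ (DRlyp/lyp) arrays, squares the 2 DR AA4+ (DR+/+) arrays, short lines the means and the dashed line the filter at 28.3. Cd2, Cd5, Cd6 and Cd8b lie higher on both DRlyp/lyp arrays, Cd4 lies above the filter on the DR+/+ arrays alone, and Cd28 and Ctla4 lie below it on every array.

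Cd2 had the largest difference among the members with higher signal. Its signal was 191.1 and 198.7 on the DRlyp/lyp arrays and 40.8 and 46.4 on the DR+/+ arrays. Both DRlyp/lyp arrays thus lay far above both DR+/+ arrays, and duplicates of a pool lay close together. The means were 195 ± 5.37 and 43.6 ± 3.96 (SD, n = 2), a 4.48-fold higher signal with a log2 difference of 2.16 (SE 0.22, limma adjusted p = 1.6e-05). Cd2 kept its call in every alternative tried, including the test of all probe sets (adjusted p = 0.0326).

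Cd5 and Cd6, the scavenger-type receptors, differed by nearly the same amount. Cd5 read 331.7 and 356.9 on the DRlyp/lyp arrays against 108.9 and 133.6 on the DR+/+ arrays. This is a 2.85-fold higher signal (log2 difference 1.51, SE 0.16, limma adjusted p = 2.74e-05). Cd6 read 109.5 and 119.5 against 35.1 and 45.6, with no overlap between the pools. The fold for Cd6 was 2.86 (log2 difference 1.52, SE 0.26, limma adjusted p = 0.000752). On each array the log2 signal of Cd5 minus that of Cd6 was 1.60 and 1.58 in the DRlyp/lyp pool and 1.63 and 1.55 in the DR+/+ pool, ranges that overlap, so a difference between the changes of Cd5 and Cd6 was not resolved. In the test of all probe sets Cd5 kept its call (adjusted p = 0.0477) and Cd6 did not (adjusted p = 0.0681).

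Cd8b, the CD8 beta chain, which is found mainly on alpha-beta T cells with a CD8 heterodimer, differed less. It read 134.1 and 165.2 on the DRlyp/lyp arrays and 80.7 and 105.9 on the DR+/+ arrays, so the pools did not overlap but the gap between them was about as wide as the spread within them. The means were 150 ± 22 and 93.3 ± 17.8, and the signal was 1.61-fold higher (log2 difference 0.69, 95% interval 0.22 to 1.16, limma adjusted p = 0.0249). Leaving out DRlyp/lyp replicate 1 ended the call (log2 difference 0.84, adjusted p = 0.0701), as did leaving out DRlyp/lyp replicate 2 (0.54, 0.233) or DR+/+ replicate 1 (0.49, 0.107). It was also lost with each array centred on its median (0.57, adjusted p = 0.0569), without the intensity trend (adjusted p = 0.0733) and in the test of all probe sets (adjusted p = 0.219).

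The 3 probe sets of Cd8a, the CD8 alpha chain, did not give the same answer. The brightest, 1385414_at, read 777.3 and 801.1 on the DRlyp/lyp arrays against 369.4 and 472.7 on the DR+/+ arrays. It was 1.89-fold higher (log2 difference 0.92, SE 0.12, limma adjusted p = 0.00014). The set 1395116_at read 237.7 and 221.6 against 65.9 and 117.2, with the DR+/+ arrays well apart from each other. Its fold was 2.61 (log2 difference 1.38, SE 0.25, limma adjusted p = 0.000938). The third set, 1369877_at, read 92.5 and 92.6 against 92.9 and 117.1, and its log2 difference of -0.17 had a 95% interval of -0.65 to 0.30 (limma adjusted p = 0.564). That interval excludes differences as large as those of the other 2 sets. Within each array, the log2 signal of 1369877_at minus that of 1385414_at was -3.07 and -3.11 in the DRlyp/lyp pool and -1.99 and -2.01 in the DR+/+ pool, so these sets changed unequally. Which part of the transcript each set covers was not known here, and the part of RNA length in the disagreement was not tested. The mean over the 3 sets kept the call for Cd8a (log2 difference 0.71, adjusted p = 0.00706), whereas in the test of all probe sets both higher sets lost theirs (adjusted p = 0.0957 for 1385414_at and 0.171 for 1395116_at).

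**Figure D2:**
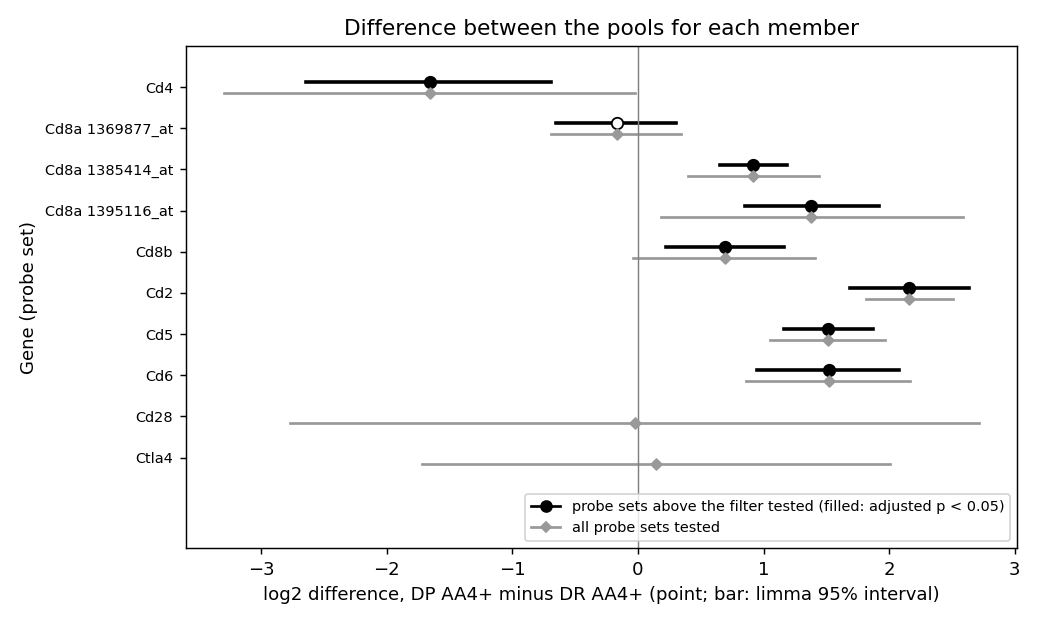
Log2 difference between the pools (DP AA4+ minus DR AA4+) for each member probe set, with limma's 95% intervals; black marks the fit over probe sets above the filter (filled where the adjusted p was under 0.05) and grey the fit over all probe sets. Cd2 has the largest positive difference, 1 of the Cd8a sets lies at -0.17, Cd4 lies at -1.66, and the grey intervals of Cd28 and Ctla4 span differences in either direction.

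Cd4 went the other way. Its single probe set read 20.7 and 10.6 on the DRlyp/lyp arrays and 43.7 and 50.3 on the DR+/+ arrays, so it was above the filter only in the DR+/+ pool and was not shown to be above background in the DRlyp/lyp pool. The signal was at least 1.66-fold lower in the DRlyp/lyp pool (fitted log2 difference -1.66, which depends on the floor, limma adjusted p = 0.0114). Only the DR+/+ arrays carried it past the filter, so a lower call was the one direction open to it. Leaving out DRlyp/lyp replicate 2 ended the call (-1.18, adjusted p = 0.0959), as did leaving out DR+/+ replicate 2 (-1.56, 0.0607) or testing all probe sets (adjusted p = 0.201).

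Other genes of the helper lineage went in both directions. Zbtb7b, the factor that commits thymocytes to the CD4 lineage, read 48.8 and 35.7 in the DRlyp/lyp pool and 38.8 and 30.6 in the DR+/+ pool, with overlapping arrays (log2 difference 0.28, limma adjusted p = 0.565). Cd40lg, a ligand that helper T cells display on activation, lay between 5.4 and 11.6 on the 4 arrays. Of the 20 genes of a CD4 helper list that includes Cd4, 16 had a probe set, 8 were tested and 5 passed the threshold, 3 of them higher and 2 lower; the median log2 difference was 0.37. The higher ones were Gata3, a transcription factor of type 2 lymphocytes (5.67-fold), Icos, an inducible costimulatory receptor (3.62-fold), and the chemokine receptor Ccr6 (1.64-fold). The lower ones were Cd4 and Cxcr5, a homing receptor shared with B cells (1.99-fold lower). The other 8 genes on the array, including Il2, Il4, Il5, Il13 and Ifng, were too dim to be tested.

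Macrophage and dendritic cells can carry CD4 in the rat, and their genes went in both directions. Of 21 tested, 9 had lower signal in the DRlyp/lyp pool and 6 had higher signal (median log2 difference -0.24). Their summed signal, over 1 probe set per gene, ranged from 22252.1 to 22465.2 on the DRlyp/lyp arrays and from 23647.4 to 24232.7 on the DR+/+ arrays. Such a sum follows its brightest genes: Lyz2, a higher gene, alone read 10794.5 and 10459.1 against 7377.4 and 7127.4. The largest lower differences were those of Slc40a1 (3.4-fold), Gpnmb (3.15-fold) and C1qb (2.87-fold). The largest higher ones were those of Clec10a (2.31-fold), Batf3 (2.02-fold) and Mrc1 (1.59-fold). Defining genes were well above the filter in both pools: the lysosomal Cd68 read 2512.5 and 2567.8 against 1746 and 1846.1, and the receptor Csf1r read 1038.6 and 921.5 against 1556.1 and 1559.5. Their part in the Cd4 difference was not tested.

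Cd28 and Ctla4, the paired receptors for CD80 and CD86, were not detectable above background. Cd28 read 23.4 and 2.6 on the DRlyp/lyp arrays and 16.1 and 10.2 on the DR+/+ arrays, and Ctla4 read 11.1 and 16.7 against 18.3 and 8.3. All 8 values lay under the filter of 28.3 and the pools overlapped for both genes. In the test of all probe sets their log2 differences were -0.02 (95% interval -2.77 to 2.72) and 0.14 (-1.72 to 2.01), intervals wide enough to hold the difference of Cd5 or Cd6 in either direction. A dim probe set does not show that the transcript is missing from either pool.

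The T cell receptor complex gives a scale for the coreceptors. All 4 of its tested genes were higher in the DRlyp/lyp pool, with a median log2 difference of 2.59. Cd3d, a signalling chain, read 392.2 and 388.3 against 76.5 and 63.7 (5.59-fold), and Cd247, the zeta chain, read 653.2 and 564.9 against 214.5 and 188 (3.02-fold). Another probe set of Cd247 was not called. The higher members differed less than Cd3e (log2 difference 3.41), Cd3g (2.69) and Cd3d (2.48), whereas the difference of Cd247 (1.60) was smaller than that of Cd2. On each array the log2 signal of Cd8b minus that of Cd3e was -2.54 and -2.42 in the DRlyp/lyp pool and 0.10 and 0.39 in the DR+/+ pool, an unequal change of -2.72. The same quantity for Cd2 minus Cd3e was -2.03 and -2.15 against -0.89 and -0.80, an unequal change of -1.25. With 2 arrays a pool an exact two-sided permutation test of such a quantity cannot go below p = 0.333. Signals of different probe sets are not levels that can be ranked, so only their changes were set side by side.

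Among cytotoxic genes, which CD8 T cells share with NK cells, higher calls outnumbered lower ones. Of 15 tested, Cd8a and Cd8b included, 9 were higher and 1 lower (median 0.32), against 20.9% and 21.1% of all 9349 genes. Runx3, the factor that silences Cd4 in CD8 T cells, read 964.8 and 869.2 against 585.7 and 510.8 (1.67-fold, limma adjusted p = 0.000194). The granule cathepsin Ctsw was 3.4-fold higher, and Eomes, a factor of memory CD8 T cells and NK cells, was 1.86-fold higher. The Eomes call was lost without either DRlyp/lyp array or DR+/+ replicate 2 (lowest log2 difference 0.53), and another probe set of Eomes was not called. Gzmb was 1.41-fold lower, while another of its probe sets was higher. With each array centred on its median the list had 6 higher and 2 lower, and without the intensity trend 4 higher and 0 lower. Among 15 NK cell genes tested, 5 rose and 3 fell, with a median of 0.22 and summed signals of 6498.8 to 6590.1 against 5754.3 to 6210.3. In that sum Prf1, a higher gene, alone read 2546.6 and 2338.5 against 2175.1 and 1766.5. The 5 higher calls fell to 1 without DRlyp/lyp replicate 2, to 2 without DRlyp/lyp replicate 1 or DR+/+ replicate 2, and to 3 with each array centred on its median. Klrc2 (4.75-fold) and Klre1 (1.68-fold) were higher, and Fcgr3a was 2.45-fold lower. The NK receptor Ncr1 read 15.6 and 19.2 against 43.9 and 41.5. It was under the filter in the DRlyp/lyp pool, so a lower call was the one direction open to it. The Ncr1 call was lost whenever any 1 array was left out. The part of NK cells in the Cd8a difference was not tested.

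**Figure D3:**
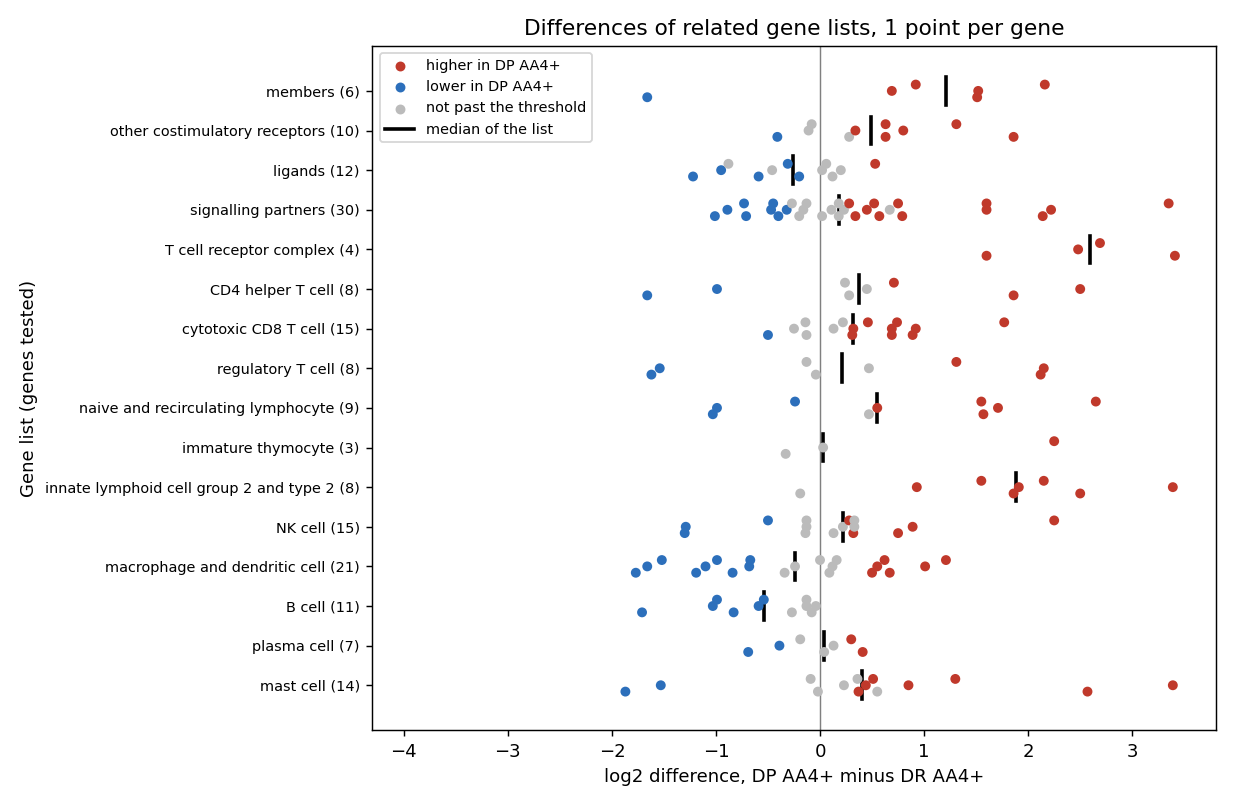
Log2 difference (DP AA4+ minus DR AA4+) of each tested gene in the members' list and in 15 related lists, 1 point per gene by its brightest tested probe set; colours mark higher, lower and not past the threshold, and black lines the list medians. The T cell receptor complex has the highest median, 2.59, and the B cell list the lowest, -0.54; genes can stand in more than 1 list.

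Regulatory T cell genes gave no common direction. Foxp3, the defining factor of that subset, was not analysed here, Ctla4 was dim, and of 8 genes tested 3 were higher and 2 lower (median 0.21), with 1 higher without either DRlyp/lyp array. Over all 9349 genes tested, 20.9% were called higher and 21.1% lower. Ikzf2, the transcription factor Helios, read 134.2 and 124.6 against 34.6 and 25.7 (4.34-fold, limma adjusted p = 0.000106). Il2ra, a chain of the interleukin 2 receptor, and Tnfrsf4, the costimulatory receptor OX40, were at least 1.52- and 1.78-fold higher. Neither was above the filter on a DR+/+ array, so a higher call was the one direction open to them. Their calls were lost without either DRlyp/lyp array, and that of Tnfrsf4 also without DR+/+ replicate 1. Nrp1, a receptor of some thymic regulatory T cells and of dendritic and endothelial cells, was 2.9-fold lower, while another of its probe sets was not called. The ectonucleotidase Entpd1 was at least 1.51-fold lower, a call lost without DRlyp/lyp replicate 1 and without either DR+/+ array. Only the DR+/+ arrays carried Entpd1 past the filter, so a lower call was the one direction open to it.

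Genes of naive and recirculating lymphocytes were divided. Of 9 tested, 5 were higher and 3 lower (median 0.55), and Cd28 was the 1 gene on the array that was not tested. Tcf7, a factor of naive T cells and innate lymphocytes, read 1381.1 and 1287.6 against 205.9 and 219.4 (6.27-fold, limma adjusted p = 9.1e-09). Satb1, a chromatin organiser of T cells, and Lef1, a relative of Tcf7, were 3.27- and 2.96-fold higher, but another probe set of Lef1 was not called. Klf2, which sustains lymphocyte recirculation, was 1.98-fold lower by its brightest probe set. Another of its probe sets was also lower, and the others were not called or not tested. The Klf2 target S1pr1, the receptor for exit from lymph nodes, was 1.18-fold lower, a call lost without DRlyp/lyp replicate 1. Of the 3 thymocyte genes tested, Tox was higher (4.76-fold) and the other 2 were not past the threshold by their brightest probe set. For Cd99, 1 of those 2, another probe set was called higher.

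The list of group 2 innate lymphoid and type 2 genes, which are also expressed by T cells and mast cells, had 7 of 8 tested genes higher and 0 lower (median 1.88); 2 of the 7, Il2ra and Il1rl1, were below the filter in the DR+/+ pool. Il9r, the receptor for interleukin 9, read 125.2 and 99.1 against 41.2 and 21.3 (3.76-fold), and Klrg1 was 1.91-fold higher, a call lost without either DRlyp/lyp array or DR+/+ replicate 2. The 7 genes of this list that were too dim to be tested included Rora, Areg, Ptgdr2 and the cytokines Il4, Il5 and Il13.

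Among 10 other tested costimulatory and inhibitory receptors of T cells, 6 were higher and 1 lower (median 0.49). Icos led them, at 1422.2 and 1384.7 against 423.1 and 355.4 (log2 difference 1.86, limma adjusted p = 1.8e-07), but 1 of its 3 probe sets was not called. Spn and Cd7, surface proteins of T and NK cells, were each 1.55-fold higher, and Cd96, a receptor for a nectin-like ligand, was 1.74-fold higher, a call lost without either DRlyp/lyp array. Tnfrsf4 was also higher, by at least 1.78-fold. It was below the filter in the DR+/+ pool, so a higher call was the one direction open to it. Cd44 was 1.27-fold higher by its brightest probe set and lower by another. Cd69, an early activation marker, was the 1 lower gene (1.33-fold lower). Thy1, a pan-T-cell glycoprotein of mice that rats carry on recent thymic emigrants and other cells, differed by -0.08 (limma adjusted p = 0.712). Without DRlyp/lyp replicate 1 or DRlyp/lyp replicate 2 the number of higher genes fell to 3.

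Among the ligands, lower calls outnumbered higher ones in the main test. Of 12 tested, 1 was higher and 5 lower (median -0.26), against 20.9% and 21.1% of all 9349 genes. Without the intensity trend 1 was higher and 2 lower. Cd86, a ligand of CD28 and CTLA4, was 1.24-fold lower, a call lost without either DRlyp/lyp array or DR+/+ replicate 1, and Cd80 lay at or below 17.2 on all arrays. Cd48, the ligand of CD2, read 2481.4 and 2552.6 against 2398.5 and 2585.2 (log2 difference 0.02, limma adjusted p = 0.873), and Alcam, the ligand of CD6, differed by 0.20 (adjusted p = 0.426). Icoslg, the ligand of ICOS, was 2.34-fold lower and Cd47 1.93-fold lower, while another probe set of Cd47 was not called. Cd40, the receptor of CD40 ligand on antigen-presenting cells, was 1.51-fold lower, a call lost without DRlyp/lyp replicate 1 (log2 difference -0.43). The MHC class II chain RT1-Da, part of the ligand of CD4, was the 1 higher gene (1.44-fold), while RT1-Bb, of another class II molecule, was 1.15-fold lower, a call lost without DRlyp/lyp replicate 1 or DR+/+ replicate 2. B cells display several of these ligands. In a B cell list, 6 of the 11 tested genes had lower signal and 0 had higher signal, with summed signals of 17378.7 to 18543.7 against 22328.2 to 23777; their part was not tested. Without DRlyp/lyp replicate 1 the ligands had 2 lower genes in place of 5.

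The signalling partners went in both directions. Of 30 tested, 12 were higher and 8 lower (median 0.18). Lck, the kinase that binds the tails of CD4 and CD8, read 2910.2 and 2914.6 against 634.6 and 686.5 (4.41-fold, limma adjusted p = 2.98e-09). Zap70, the kinase that acts after Lck, was 4.65-fold higher and Prkcq, the protein kinase C that CD28 recruits, 10.2-fold higher. Pstpip1, which binds the tail of CD2, was 1.73-fold higher, whereas Cd2ap, an adaptor for the same tail, was 1.38-fold lower. Traf5, which carries signals of CD27, was 2.01-fold lower and Traf2 differed by 0.11 (adjusted p = 0.614). Grb2, a general adaptor, and Ptpn6, a phosphatase that CD5 can recruit, were 1.85- and 1.65-fold lower. Fyn was 1.48-fold higher by its brightest probe set and lower by another.

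In the test of all probe sets, the 4 genes of the T cell receptor complex kept their calls. The other lists kept fewer: 2 higher and 1 lower in the helper list, 2 and 0 in the cytotoxic list, 0 and 1 in the regulatory list, 2 and 0 in the naive list, 4 and 0 in the type 2 list, 3 and 1 among the other costimulatory receptors, 0 and 2 among the ligands, 4 and 4 among the signalling partners, 2 and 6 in the macrophage list, 0 and 1 in the NK list and 0 and 4 in the B cell list. The mast cell list kept 3 and 0, the plasma cell list 0 and 0 and the thymocyte list 0 and 0. Without the intensity trend the mast cell list had 3 higher and 2 lower. Lck, Zap70, Tcf7, Icos and Gata3 were among the genes that stayed past the threshold in the test of all probe sets. Prkcq (limma adjusted p = 0.0516), Ikzf2 (0.0538), Runx3 (0.0796) and Satb1 (0.0937) did not.

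Likeness to Cd2 was measured as the distance between log2 profiles over the 4 arrays, each centred on its mean, among 9349 genes. Nearest to Cd2 were Lck (distance 0.0673), Rab37 (0.0922) and Dync2i1 (0.135), and 58 genes lay within 0.5. Dync2i1 read 5.2 and 8 on the DR+/+ arrays, under the filter, so its distance depends on the floor. Lck was thus the gene closest to Cd2 in how it differed between the arrays. No such neighbours are given for Cd4, whose profile rests on values under the filter on both DRlyp/lyp arrays. With 4 arrays of 2 pools such a distance mainly reads 1 difference and the spread of the duplicates.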

How the data were processed

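The authors deposited 1 linear intensity for each probe set and array of the Affymetrix rat genome design; which program made and scaled them is not given in the sources used here. RNA of 8 animals per pool, about 50 ng, was amplified in 2 cycles, per the series' design text. The 2% trimmed mean was 150.1 on every array, and 23.1% to 27.5% of values lay at or below the floor. Here values under the 25th percentile (6.8) were set to it before taking log2. A probe set entered the test when at least 2 of 4 arrays exceeded the median (28.3). The test was limma 3.58.1 (R 4.3.3, two-sided, intensity trend, Benjamini-Hochberg over 16068 probe sets, threshold 0.05). A gene under 28.3 on both arrays of a pool got a fold bound against 28.3. The number of arrays limits precision. Symbols came from the 2016 platform annotation; the Entrez numbers of all 10 member probe sets were found in RefSeq's GRCr8 table with 0 symbols changed.

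Members and lists were chosen with earlier results of these data known. Named were all members, in each list at most 3 called genes per direction whose arrays did not overlap, and a few preset markers and ligands; Il9r, Cd69, Spn, Traf2, Cpa3 and other genes outside that rule were named after their values were seen. The test was checked on simulated arrays. Arrays sharing a replicate number had deviations correlated at 0.0438, so they were not treated as paired. Alternatives were quantile normalization, median centring, other filters, another floor, an offset of 50, a replicate block, no intensity trend, averaging the probe sets of a gene and leaving out each array.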

Additional observations from a re-analysis of the deposited data

How the results depend on the processing

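The number of member probe sets called higher was 6, which belong to 5 genes. It was 2 with no filter on dim probe sets and 4 to 6 under the other alternatives that kept single probe sets. The number called lower, Cd4 alone, was 1. It was 0 with no filter and 0 with the filter at the 75th percentile, which Cd4 does not pass, and 0 to 1 when single arrays were left out (0 without DRlyp/lyp replicate 2 and 0 without DR+/+ replicate 2). The number of probe sets called over the whole array was 6302. It was 1671 with no filter and 4057 with no intensity trend, and 3478 to 5800 when single arrays were left out, lowest without DRlyp/lyp replicate 1 (3478) and DRlyp/lyp replicate 2 (3767). With the replicate block it was 7044, and the member probe sets called stayed at 6 higher and 1 lower. Median centring moved the median difference of all probe sets to -0.11 and the share of calls that were higher from 49.3% to 36.1%. No member turned its direction while called: of 100 values of single members under an alternative, 88 kept their side of the threshold and 12 lost it. Among the genes of the other lists, to which the alternatives were applied after the data had been seen, 2 values were called with the opposite sign, both when the probe sets of a gene were averaged: Cd44 (-0.47) and Fyn (-0.41). Some other values turned sign without being called, such as those of Akt1, Cd48 and Alcam. The cause of these changes was not tested. Dimness limits Cd4, Cd28 and Ctla4 most, since their signal in 1 or both pools is not shown to be above background.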
